A study of Saccharomyces cerevisiae with 255 samples.

Results

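The genes described here code for 60S ribosome assembly factors of Saccharomyces cerevisiae. They are 42 of the 6629 genes in the count tables and were chosen by name, as proteins that act on the precursor of the large ribosomal subunit (pre-60S), not by a threshold on measured values, though with earlier results of these data known. All 42 were found in the tables, and all 42 passed the expression filter of every main test on tagging. RNA tagging detects which mRNAs an RNA-binding protein (RBP) meets in the cell: the RBP is fused to the poly(U) polymerase Pup-2 of Caenorhabditis elegans, which adds uridines (Us) behind the poly(A) tail of mRNAs it reaches. Reads with 4–13 Us are called tagged reads here, and the tagged share of a gene is its tagged reads as a percent of all its reads.

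The series holds 255 libraries of 90 strains, all in the BY4741 background and grown exponentially in synthetic complete medium with glucose. In 34 strains (109 libraries) an intact RBP carried Pup-2 at its own locus, and in 50 strains (127 libraries) parts of 1 of 8 such RBPs had been removed. The controls were 11 libraries with catalytically inactive Pup-2 (dPup2) on Puf3 (7 libraries), Puf4 (2) or Puf5 (2), and 8 libraries of C-Swat strains without Pup-2. The groups used most are Puf4-Pup2 (4 libraries), its deletions labelled ΔRBD (4 libraries), T1 (4), T2 (3), T3 (3), T4 (2), ΔIDR (2) and T4&ΔIDR (2), Puf5-Pup2 (6) and Pub1-Pup2 (4). RBD stands for an RNA-binding domain, IDR for an intrinsically disordered region and T for a truncation. Deletions were made in strains that already carried the Pup-2 fusion, clone numbers are given for only part of the strains, and libraries of a strain may share a clone, so that p-values measure the spread between libraries, which may be technical. Counts are taken at the 3′ ends of mRNAs and cannot show whether the labelled protein part is missing. Depth was 93564 to 5768639 reads per library (median 1045022), and the 42 mRNAs together had 295 to 25930 reads per library (median 6227).

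Some libraries of the Puf4 strains stood apart from the others of their strain. The chi-square per degree of freedom between the counts of a pair of libraries, which is near 1 for counting error alone, was 2.01 and 2.11 within a pair of T1 libraries but 11.1 to 15.1 between these pairs. It was 1.85 between C1_2 and C1_3 of ΔRBD but 23.5 to 25 between them and the others, and library C1_3 of T2 and library 3 of T3 stood 11.5 to 15.2 and 11.9 to 13.2 from the rest of their strains. Pairs of Puf4 libraries differed by 12.8 to 35.6. Library C1_5 of Puf4 was set apart after the values were seen, because its tagged share of the 42 mRNAs was lower and their level higher than in the others of its strain. Results that rest on these libraries are given with and without them below.

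The large ribosomal subunit is assembled in the nucleolus, where early factors bind the nascent rRNA precursor, helicases remodel it, GTPases and the 5S ribonucleoprotein mark its maturation, and export factors carry the particle to the cytoplasm. Genes for these factors are known in yeast as part of a large group that is turned up together when cells grow. Puf4 is a Pumilio-family protein, whose repeats each read a base of a short element in the 3′ untranslated region that begins with UGUA, and mRNAs for ribosome assembly factors are known among the mRNAs it binds. Pub1 is a poly(U)-binding protein with RNA recognition motifs.

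Puf4-Pup2 tagged most of the 42 mRNAs. Of all their reads in the 4 Puf4 libraries, 4287 of 39136 were tagged, compared with 9 of 71682 in the 11 dPup2 libraries and 6 of 52786 in the C-Swat libraries. The 42 genes held 0.530% of all Puf4 reads but 9.89% of the tagged reads. By edgeR's quasi-likelihood test of tagged reads relative to all reads of each gene, with Benjamini-Hochberg adjustment over all genes tested, 32 of the 42 were higher in Puf4 than in dPup2 and 0 were lower (34 higher and 0 lower at an unadjusted p under 0.05), whereas 11.3% of the 4379 genes tested were higher. DESeq2 called 28 of the 42. For 28 members, every Puf4 library lay above every dPup2 library, a count that was not taken over all genes and is a description only. Since 34 members had 0 tagged reads in dPup2, fold changes against it are mostly lower bounds, computed against a floor of 3 tagged reads over the whole group. The median over the 32 members with a fold was 79.5-fold, with 24 of them at their bound, and that over the 572 genes with a fold was 10.5-fold. The fitted log2 difference had a median of 6.58 over the 42 and of 1.55 over all genes. In a ranking of 4323 expressed genes by modification level in the averaged Puf4 libraries (the number of Us on tagged reads per read of the gene), 4 of the first 10 genes, 13 of the first 50, 23 of the first 100 and 29 of the first 200 were members, and RRS1 took rank 2.

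**Figure D1:**
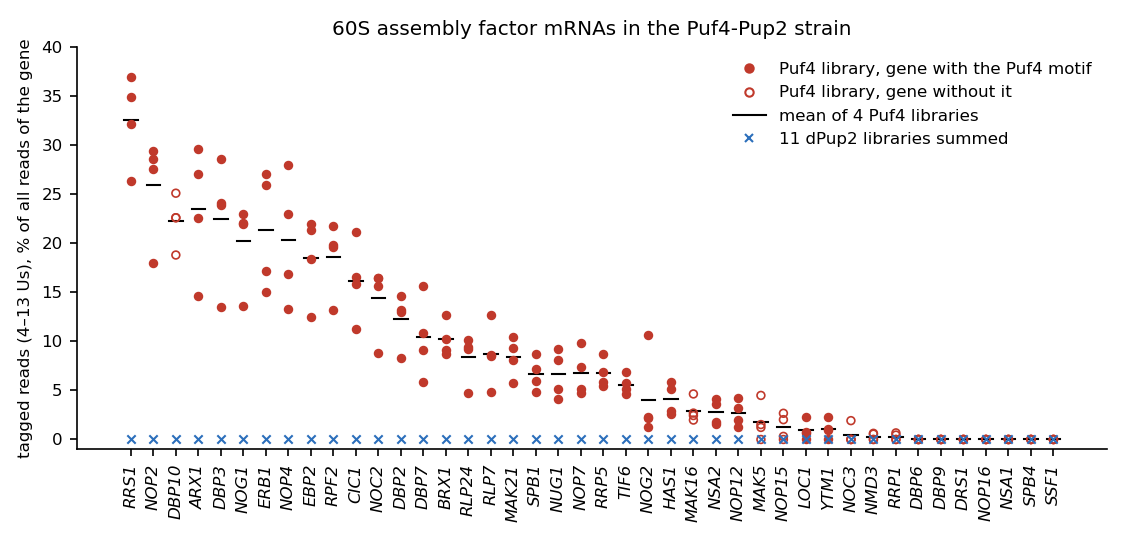
Tagged share of each of the 42 mRNAs (percent of the gene's reads with 4–13 Us) in the 4 Puf4-Pup2 libraries, with the mean as a line and the 11 dPup2 libraries summed as a cross. Filled points are genes with the Puf4 element TGTANANTA within 300 nt after the stop codon, open points genes without it. RRS1 lies highest, at 26.3% to 36.9%, and 7 genes lie at 0 in all 4 libraries.

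The 10 mRNAs of highest mean modification level are described first, and 9 of these carry the element TGTANANTA (N is any base) that Puf4 reads, within 300 nt after the stop codon on the sense strand. The sites of these 9 mRNAs are shown because they are the most strongly tagged, with 10 nt on each side and the element in capitals. They were read 5′ to 3′ as DNA from the RefSeq genome of build R64.
RRS1: tttaaataatTGTAAATTAgaaaaacatc
NOP2: tatgtctcacTGTATATTAaattcaaaat
ARX1: tatcataaaaTGTAAAATAgaatattata
DBP3: aacaaaacacTGTATATTActattataac
NOG1: ttatttaatcTGTATAATAataataaacc
ERB1: aagtagatatTGTATAATAacgcccaaga
NOP4: tctttacgtaTGTACATTAtttttcaaag
EBP2: atcatctcttTGTACACTAgtataaaata
RPF2: ccataaacttTGTATATTAtatgataatc
The RRS1 site lies at chrXV:869059-869087 (plus strand), where the element starts 118 nt after the stop codon, and that of NOP2 at chrXIV:512495-512523 (plus strand, 109 nt). The ARX1 site is at chrIV:655613-655641 (minus strand, 55 nt), that of DBP3 at chrVII:360188-360216 (minus strand, 82 nt), that of NOG1 at chrXVI:373116-373144 (plus strand, 205 nt) and that of ERB1 at chrXIII:368053-368081 (minus strand, 23 nt). The NOP4 site is at chrXVI:472035-472063 (plus strand, 49 nt), that of EBP2 at chrXI:127102-127130 (plus strand, 70 nt) and that of RPF2 at chrXI:591474-591502 (minus strand, 14 nt). All lie downstream of the coding sequence. Ends of transcripts were not read from the annotation, so a distant site may lie outside the mRNA.

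RRS1 (YOR294W) and RPF2 (YKR081C) code for the partners that bring the 5S ribonucleoprotein into the pre-60S particle, and both rose, with 24.7% of their summed reads tagged. RRS1 had tagged shares of 32.2%, 36.9%, 26.3% and 34.9% in the Puf4 libraries C1_1, C1_2, C1_5 and C1_C2_1, and 0 of 1665 reads in dPup2. Its share was 32.6% ± 4.62 (SD, n = 4) and its modification level 2.65 ± 0.369 (SD, n = 4), the highest of the 42. The share was at least 180.3-fold higher than in dPup2 (fitted log2 difference 9.03, SE 0.53, edgeR adjusted p = 1.02e-61). RPF2 had 21.8%, 19.6%, 13.2% and 19.8% in the same order, at least 125.9-fold above the 0 of 2070 reads in dPup2. In both genes C1_5 was the lowest of the 4 libraries, and none of the Puf4 libraries overlapped the controls.

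NOP2 (YNL061W), which codes for a methyltransferase that modifies a cytosine of 25S rRNA, had 28.6%, 29.4%, 18% and 27.6% of its reads tagged in C1_1, C1_2, C1_5 and C1_C2_1. That was at least 127.0-fold above dPup2 (0 of 1477 reads, adjusted p = 1.23e-53). SPB1 (YCL054W), the methyltransferase that acts on riboses of the same rRNA, rose as well, with 33 tagged reads of 461 and a share of 6.67% ± 1.66 (SD, n = 4). The methyltransferase mRNAs thus differed in share by more than their spread between libraries, with no overlap of the ranges of NOP2 (18% to 29.4%) and SPB1 (4.85% to 8.72%).

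NOG1 (YPL093W), NOG2 (YNR053C) and NUG1 (YER006W) code for nucleolar GTPases, and all 3 rose. NOG1 had 22.1%, 22.0%, 13.6% and 23.0% tagged reads, at least 113.2-fold above dPup2 (0 of 1633). NUG1 was at 6.66% ± 2.41 (SD, n = 4). NOG2, at 4.07% ± 4.36 (SD, n = 4), ranged from 1.25% to 10.6%, a spread as large as its mean.

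Of the 10 helicases, all of the DEAD-box family that unwinds RNA with ATP, 6 rose. DBP10 (YDL031W) had 22.6%, 22.6%, 18.8% and 25.1% tagged reads, at least 72.1-fold above dPup2 (0 of 955), and it is the 1 of the 10 highest without the element TGTANANTA. DBP3 (YGL078C) had 28.6%, 23.9%, 13.5% and 24.1%, at least 113.1-fold above dPup2 (0 of 1494). DBP2 (YNL112W), a helicase that also acts on mRNAs, had 12.3% ± 2.76 (SD, n = 4), and its 401 tagged reads of 3137 compare with 2 of 4376 in dPup2, a ratio of 279.7 (95% exact counting interval 76.9 to 2317.4). DBP7 (YKR024C) was at 10.4% ± 4.07, HAS1 (YMR290C) at 4.14% ± 1.63 and MAK5 (YBR142W) at 1.81% ± 1.91 (SD, n = 4 each), and MAK5 had 0 tagged reads in its lowest library. DBP6 (YNR038W), DBP9 (YLR276C), DRS1 (YLL008W) and SPB4 (YFL002C) had no tagged read in Puf4. The count of 0 allows a tagged share of up to 1.62% for DBP6, 0.575% for DBP9, 0.997% for DRS1 and 1.21% for SPB4, from counting error alone, so that these lay below DBP3 and DBP10 by more than the depth can hide.

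Of the 6 members that act at the internal transcribed spacer ITS2 or in the Nop7 complex, all rose. ERB1 (YMR049C), the partner of Nop7 and Ytm1, had 27.1%, 25.9%, 15% and 17.2% tagged reads, at least 87.6-fold above dPup2 (0 of 1332). CIC1 (YHR052W) followed with 16.2% ± 3.99, RLP7 (YNL002C) with 8.67% ± 3.20 and NOP7 (YGR103W) with 6.77% ± 2.38 (SD, n = 4 each). NOP15 (YNL110C), at 1.25% ± 1.30, and YTM1 (YOR272W), at 1.06% ± 0.921 (SD, n = 4 each), were lowest, and each overlapped the controls, with a Puf4 library at 0. ERB1 and YTM1, whose products bind each other, thus had mean tagged shares of 21.3% and 1.06%.

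Of the 5 early factors and Noc proteins, 4 rose. NOP4 (YPL043W), an RNA recognition motif protein of early pre-60S particles, had 16.9%, 28%, 13.3% and 23.0% tagged reads, at least 87.6-fold above dPup2 (0 of 1334). NOC2 (YOR206W) was at 14.4% ± 3.72 and its partner MAK21 (YDR060W), also called Noc1, at 8.39% ± 1.98, whereas NOC3 (YLR002C), the other partner of Noc2, had 2 tagged reads of 438 (adjusted p = 0.245). RRP5 (YMR229C), which is needed for both subunits, was at 6.73% ± 1.45 (SD, n = 4 each). The 2 Noc proteins with an element after the stop codon rose, and the one without did not pass the test.

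Of 8 further proteins of early pre-60S particles, 4 rose. EBP2 (YKL172W) had 22.0%, 18.4%, 12.5% and 21.3% tagged reads, at least 233.1-fold above dPup2 (0 of 3855, adjusted p = 6.38e-69), the largest bound among the members. Its partner BRX1 (YOL077C) was at 10.2% ± 1.80. MAK16 (YAL025C) was at 2.94% ± 1.17 and NOP12 (YOL041C) at 2.65% ± 1.31 (SD, n = 4 each). NOP16 (YER002W), NSA1 (YGL111W) and SSF1 (YHR066W) had no tagged read among 715, 428 and 459 reads, which allows shares of up to 0.420%, 0.701% and 0.654%, and RRP1 (YDR087C) had 2 of 567 (adjusted p = 0.283).

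Of the 6 remaining members, mainly late and export factors, 5 rose. ARX1 (YDR101C), which helps the particle through the nuclear pore, had 27.1%, 22.6%, 14.6% and 29.6% tagged reads in Puf4, and 1 of 1195 in dPup2, a ratio of 300.2 (95% exact counting interval 53.3 to 11914.9). RLP24 (YLR009W), the placeholder for Rpl24, was at 8.37% ± 2.46, and TIF6 (YPR016C), which keeps the subunits from joining early, at 5.59% ± 0.951. NSA2 (YER126C) was at 2.78% ± 1.26 and LOC1 (YFR001W), which is also known for localizing ASH1 mRNA, at 0.926% ± 0.989 (SD, n = 4 each). The export adaptor NMD3 (YHR170W) had 3 tagged reads of 1033 (adjusted p = 0.0693) and did not pass. Shares within this group of 6 thus differed widely, with ARX1 among the 10 highest and LOC1 near the controls.

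Within 300 nt after the stop codon, 28 of the 42 members (66.7%) had the element TGTANANTA, and of the 4346 tested genes that could be matched to the annotation 435 had it. All 28 members with the element were higher in Puf4 than in dPup2, as were 48.0% of all tested genes with it. Of the 14 members without it, DBP10, MAK16, NOP15 and MAK5 were higher (28.6%), and of all tested genes without it 7.26% were. The median modification level was 0.724 for members with the element and 0.00810 for those without. The element started 14 to 216 nt after the stop codon (median 55.5 nt for the first site), and 24 members had it within 150 nt. MAK21 had 2 sites and RRP5 had 3, and the spelling TGTATATTA was the most frequent one, with 7 sites. Members with the element ranged in modification level from 0.0559 (YTM1) to 2.65 (RRS1).

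The sites of the 2 lowest members with the element and, for comparison, the closest matches in 3 of the members that rose without it are shown with the same capitals. The latter match only the wider pattern TGTANNNTA, which 76.2% of the members and 20.4% of all tested genes had.
YTM1: gttgtttttaTGTAGAATAatgtactgat
LOC1: ataagtctgtTGTATAATAtataacatcc
DBP10: agtttacataTGTACCATAgcaagaaaac
MAK16: ggcagcgcacTGTACCATAataacaacca
NOP15: aaaagggtttTGTAAGATAgaataggaga
They lie at chrXV:834208-834236 (plus strand, 23 nt after the stop codon, YTM1), chrVI:149749-149777 (plus strand, 35 nt, LOC1), chrIV:397238-397266 (plus strand, 44 nt, DBP10), chrI:100118-100146 (minus strand, 89 nt, MAK16) and chrXIV:417772-417800 (minus strand, 36 nt, NOP15). NMD3, which did not pass the test, also matched the wider pattern. LOC1 carried the same 9 letters as NOG1 and ERB1, with a tagged share of 0.926% against 20.2% ± 4.40 and 21.3% ± 6.09 (SD, n = 4 each). A match is a description of the letters and was not tested as a binding site. The related pattern TGTANATA occurred in 5 members.

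The lengths of the added U stretches on the 42 mRNAs in Puf4 peaked at 6 Us (1311 reads) and then stayed nearly level from 7 to 13 Us (256 to 333 reads per length). The mean was 7.70 Us per tagged read, and 7.34 on all other genes. Stretches of 14 Us (219 reads) and 15 Us (287 reads) continued this level, whereas 16 Us, the last class, was large in Puf4 (2808 of 39136 reads) and in dPup2 (4855 of 71682) alike and is not counted as tagging.

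**Figure D2:**
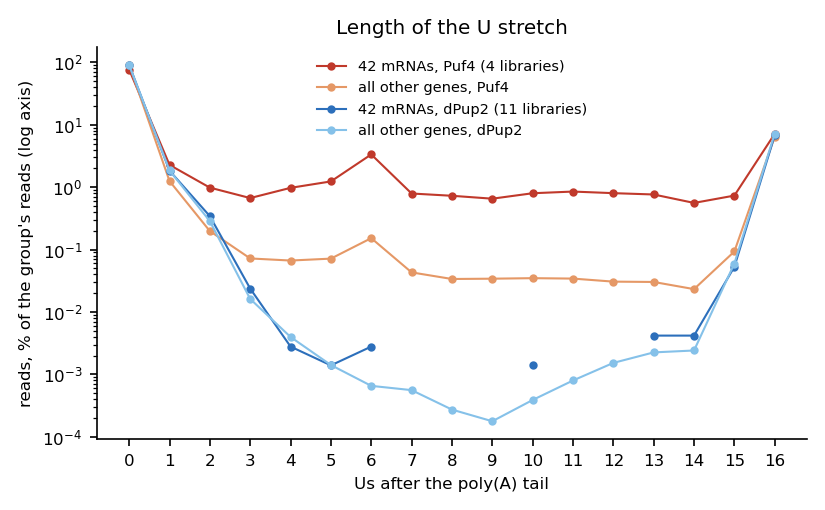
Percent of reads of the 42 mRNAs with each number of Us after the poly(A) tail, on a log axis, in Puf4 and dPup2, with all other genes for comparison (lengths without a read are not drawn). In Puf4 the share peaks at 6 Us and stays high up to 13 Us, while in dPup2 each length from 4 to 13 Us has at most 3 of 71682 reads.

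Puf5 is another Pumilio protein of the series, and a direct test of Puf4 against Puf5 asks whether the tagging is shared. Of the 42, 30 were higher in Puf4 and 0 lower (33 and 0 at an unadjusted p under 0.05, edgeR), against 6.53% of all genes tested, with a fitted median log2 difference of 6.68. EBP2, RRS1 and NOP2 had 0 tagged reads in all 6 Puf5 libraries (0 of 2498, 0 of 1063 and 0 of 1263 reads), so that Puf4 was at least 151.1-fold, 115.1-fold and 108.6-fold higher. Summed over the 42, a Puf5 library had a tagged share of 0% to 0.0881%, and a Puf4 library 7.59% to 12.3%. The groups did not overlap.

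Genes of neighbouring pathways were tagged by Puf4 in different proportions. Among 34 other 60S factors 15 were higher than in dPup2 (fitted median log2 difference 3.53), among 59 40S factors 21 (3.87), among the 8 box C/D and H/ACA snoRNP proteins 8 (9.16), among 21 subunits of RNA polymerases I and III 7 (2.06) and among 76 large-subunit ribosomal proteins 64 (3.21). The summed tagged share per Puf4 library was 7.59% to 12.3% for the 42, 4.95% to 7.11% for the other 60S factors, 1.75% to 3.37% for the 40S factors, 9.75% to 16.8% for the snoRNP proteins and 0.291% to 0.571% for the ribosomal proteins. The ribosomal proteins were thus called often at low shares. The snoRNP list reached shares as high as the 42.

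**Figure D3:**
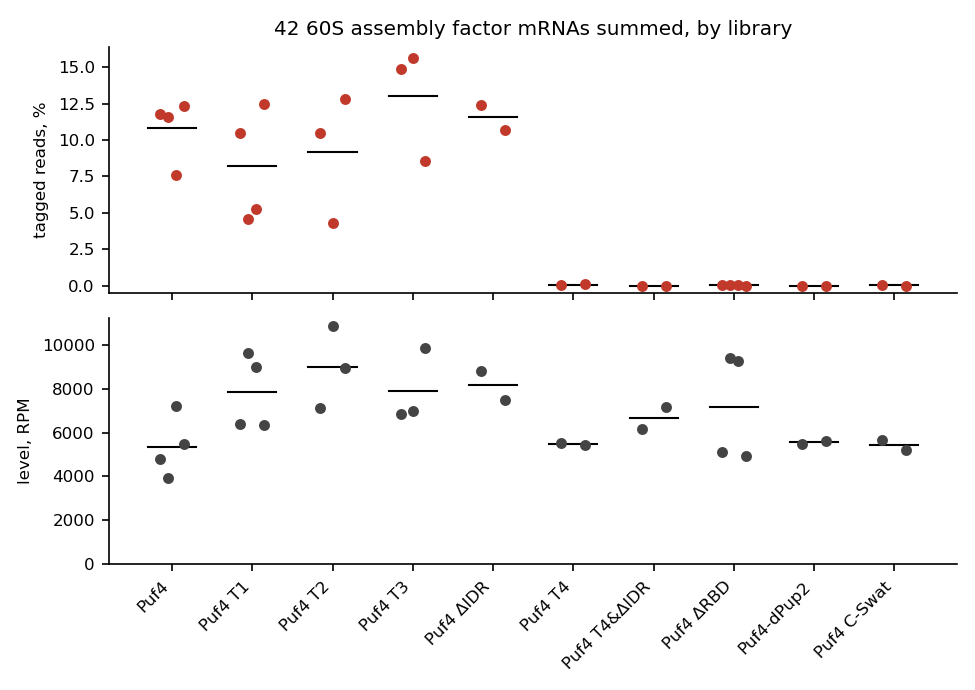
Summed tagged share (percent of reads, top) and summed mRNA level (reads per 1000000 reads, bottom) of the 42 mRNAs in the Puf4 strains, with 1 point per library and the mean as a line. The shares of ΔRBD, T4, T4&ΔIDR, Puf4-dPup2 and Puf4 C-Swat lie between 0% and 0.127%, and those of Puf4, T1, T2, T3 and ΔIDR between 4.28% and 15.6%.

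The Puf4 deletions fell into those that lost the tagging of the 42 and those that kept it. In ΔRBD, from which the RNA-binding domain with the Pumilio repeats was deleted, the summed tagged share was 0.0144%, 0.0200%, 0.0186% and 0% in C1_1, C1_2, C1_3 and C2_1. By edgeR 28 of the 42 were lower than in Puf4 (6.33% of all genes tested were lower), with a median over the 32 members with a fold of 24.7-fold and 28 of them at their bound. EBP2 had 0 tagged reads of 2173, RRS1 0 of 851 and NOP2 0 of 770, so that they were at least 131.4-fold, 92.2-fold and 66.2-fold lower. CIC1, SSF1, DBP2, NOP12 and NOP4 each had 1 tagged read in ΔRBD, and all other members had none. Without the libraries that stood apart (C1_5 of Puf4 and C1_2 and C1_3 of ΔRBD), 24 were lower.

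T4 and T4&ΔIDR, whose labels name no RBD deletion, lost the tagging as well. In T4, 23 of the 42 were lower (4.12% of all genes), and EBP2 (0 of 681), NOP2 (0 of 277) and DBP3 (0 of 282) were at least 41.2-fold, 23.8-fold and 21.3-fold lower. RRS1 had 2 tagged reads of 300 in T4, both in 1 library, with shares of 0% and 1.98%. In T4&ΔIDR, 23 were lower (3.77% of all genes), and EBP2 (0 of 1059), RRS1 (0 of 401) and DBP2 (0 of 571) were at least 64.0-fold, 43.4-fold and 24.3-fold lower. None of the 42 had a tagged read there. The titles of the T4&ΔIDR and ΔIDR libraries carry other names (Trc4ToRBD and IDRMost), so that which residues either strain lacks could not be settled from the labels. The paper reports a loss of the binding signal when a disordered middle part of Puf4 was removed, whereas the libraries labelled ΔIDR kept the tagging (below). The labels of T4&ΔIDR and ΔIDR may have been exchanged, which these counts do not settle. With 2 libraries each, 28 of the 42 lay below every Puf4 library in T4 and in T4&ΔIDR. This count was not taken over all genes either, so it has no background to be read against. Without C1_5 of Puf4, 26 were lower in T4 and 25 in T4&ΔIDR.

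In the libraries labelled ΔIDR, T1, T2 and T3 the tagging was kept, and for ΔIDR this holds of the libraries so labelled, not of a known deletion. The summed share of the 42 was 12.4% and 10.7% in ΔIDR. It was 10.5%, 4.59%, 5.23% and 12.5% in T1 (C1_1, C1_2, C1_3, C2_1), with the low values in the pair of libraries that stood apart. It was 10.5%, 4.28% and 12.8% in T2 and 14.9%, 15.6% and 8.52% in T3, again with the library that stood apart lowest. By edgeR 0 of the 42 were higher than in Puf4 in ΔIDR (0.551% of all genes), T1 (0%) and T2 (0.0225%) and 0 were lower. At an unadjusted p under 0.05, 2 were higher and 3 lower in ΔIDR, 0 and 4 in T1, and 1 and 5 in T2. Of all genes tested, 63 were higher and 15 lower at that threshold in ΔIDR (of 4354). In T1 these were 5 and 58 of 4418, and in T2 19 and 40 of 4449. DESeq2 called 0 of the 42 in each strain. Without the libraries that stood apart, 1 was higher and 1 lower in ΔIDR, 0 and 0 in T1 and 1 and 0 in T2. A p that misses the threshold does not show that the strains act alike.

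In T3, 1 of the 42 was higher (0.698% of all genes). TIF6 had 12.8%, 18.7% and 10.9% tagged reads in T3 and 5.77%, 5.12%, 4.64% and 6.84% in Puf4, with no overlap, a ratio of 2.59 (95% exact counting interval 2.04 to 3.30) and an adjusted p of 0.0203. At an unadjusted p under 0.05, 5 were higher and 0 lower (79 and 34 of all 4443 genes tested), and DESeq2 called 2 members. Without library 3 of T3 and C1_5 of Puf4, 6 were higher, and without library 1 or 2 of T3 alone, 0 were, as without C1_1, C1_2 or C1_C2_1 of Puf4. Across the 42 mRNAs, which share libraries and are not independent, Spearman's rho of the mean shares with Puf4 was 0.98 for T1, 0.93 for T2, 0.94 for T3 and 0.93 for ΔIDR, as a description, beside 0.95 between C1_1 and C1_2 of Puf4. The mean number of Us on tagged reads of the 42 was 8.32 in T3 and 7.70 in Puf4.

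The mRNA level of the 42, as reads per 1000000 reads of a library (RPM), was compared in the same strains to see whether it moved with the tagging. Fewer cells of a kind and less RNA per cell cannot be told apart in such bulk libraries. The summed level was 4784, 3924, 7212 and 5493 RPM in the Puf4 libraries C1_1, C1_2, C1_5 and C1_C2_1 and 5485 and 5616 in Puf4-dPup2. It was 5095, 9410, 9274 and 4911 in ΔRBD and 5516 and 5413 in T4, which lost the tagging, and 8808 and 7505 in ΔIDR and 6863, 6981 and 9836 in T3, which kept it. Levels of strains that lost and kept the tagging thus overlapped. C1_2 and C1_3 of ΔRBD, C1_2 and C1_3 of T1 (9639 and 9010), C1_3 of T2 (10868) and library 3 of T3, the libraries that stood apart, had the highest sums of their strains, as did C1_5 of Puf4.

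By edgeR on all reads with TMM normalization, 0 of the 42 passed the test between Puf4 and Puf4-dPup2 (1 higher and 3 lower at an unadjusted p under 0.05, 0 by DESeq2). Over the 7 Puf4 deletions, 1 of 294 tests of members was called, and it was higher, where 0.174% of all tests were called higher. This was NOG1 in T3, at 310.9, 328.4 and 325.2 RPM compared with 169.3, 140.9, 157.9 and 135.8 in Puf4 (1.87-fold, adjusted p = 0.0328), with no overlap. The fitted median log2 difference of the 42 from Puf4 was 0.52 in ΔIDR, 0.42 in ΔRBD and 0.32 in T4&ΔIDR. It was 0.42 in T1, 0.54 in T2, 0.39 in T3 and 0.22 in T4, beside -0.03 to 0.02 for all genes. Medians were 0.26 to 0.60 for the 40S factors and 0.29 to 0.64 for the other 60S factors. These comparisons share the Puf4 libraries. At an unadjusted p under 0.05 between 4 (T4) and 20 (T2) members were higher and at most 1 lower in a deletion strain, and DESeq2 called 0 (T4) to 6 (T2). Of all genes tested, 170 of 5268 in T4 and 390 of 5150 in T2 were higher at that unadjusted threshold, and 290 and 458 were lower. Library C1_5 of Puf4 changed these counts, and since it was set apart partly for its level of the 42, the counts without it describe how far they rest on 1 library and support no difference. By the chi-square per degree of freedom C1_5 stood 19.6 and 26.5 from C1_1 and C1_2, and C1_C2_1, which was not set apart, stood 25.5 and 35.6 from them. Without it 12 were called in ΔIDR, 11 in ΔRBD, 7 in T4&ΔIDR, 11 in T1, 18 in T2, 8 in T3 and 2 in T4, and 2 in Puf4 against Puf4-dPup2. Without any 1 of the other Puf4 libraries the count was 0 in each of these strains. Without all libraries that stood apart, the counts were 12, 3, 7, 0, 9, 3 and 2. The call of NOG1 was lost without library 1 or 2 of T3 or without C1_1, C1_2 or C1_C2_1 of Puf4.

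Other RBPs tagged the 42 mRNAs too. Each was compared with the same 11 dPup2 libraries, so the comparisons share their controls and their values are given side by side only. Pub1, which tagged most of the transcriptome, raised 35 of the 42, where 69.9% of all genes tested rose. DESeq2 called 21 of the 42, as did edgeR over genes with at least 10 tagged reads. In Pub1 the 42 had a lower summed share than other genes, with 10.7%, 10.6%, 8.87% and 10.5% in libraries 1, 2, 3 and 4 against 19.9% to 24.4% of the reads of all other genes. In Puf4 it was the reverse, with 7.59% to 12.3% against 0.497% to 0.684%. RRS1 led in Pub1 as well, with 39.8%, 37.9%, 28.9% and 35.5%, at least 205.5-fold above dPup2. NOP7 followed with 33.6%, 37.6%, 34.7% and 32.3% (ratio to dPup2 1011.1, 95% exact counting interval 180.5 to 40030.9), and NUG1 with 26.2%, 28.6%, 32.6% and 23.1%, at least 160.1-fold above dPup2. NOG1 had a mean share of 24.8% ± 5.37, NSA2 of 23.2% ± 4.04, DBP2 of 20.3% ± 5.64 and TIF6 of 19.8% ± 5.14 (SD, n = 4 each).

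The order of the 42 differed between Puf4 and Pub1 (Spearman's rho 0.33 across the 42 mRNAs, as a description). ERB1, CIC1 and ARX1, at 16.2% to 23.5% in Puf4, had mean shares of 0.586%, 0.523% and 1.52% in Pub1, and EBP2 had 2.52% ± 1.81 (SD, n = 4). NOP7, NSA2 and NUG1, at 2.78% to 6.77% in Puf4, were among the highest in Pub1. NOP16 and DBP9, without a tagged read in Puf4, had 34 of 614 and 25 of 408 in Pub1. CIC1, DBP7, MAK21, NOC3, NSA1, SPB4 and SSF1 did not pass the test in Pub1, and RRS1 was high in both.

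**Figure D4:**
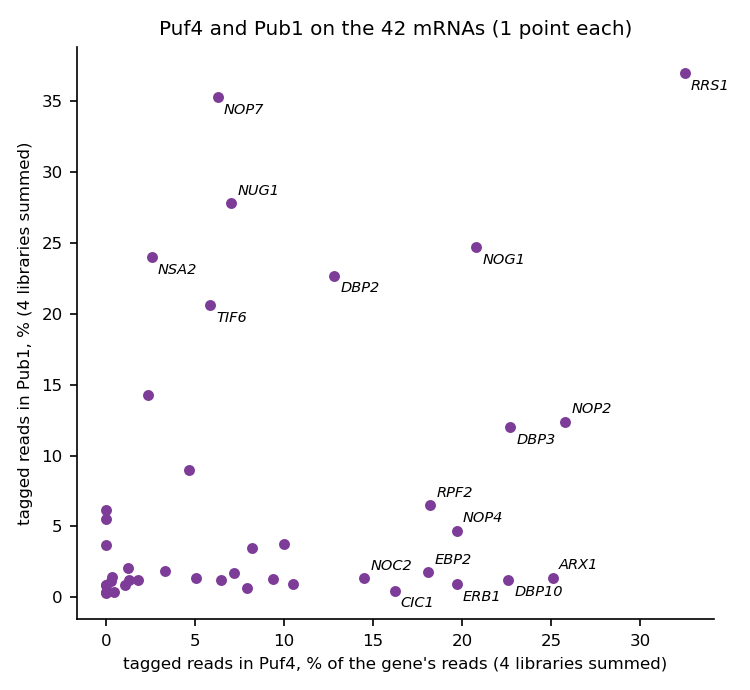
Tagged share of each of the 42 mRNAs over the summed reads of 4 libraries in Puf4 (x axis, percent) and in Pub1 (y axis, percent), 1 point per gene. RRS1 is high on both axes, NOP7 and NUG1 are high on the Pub1 axis and low on the Puf4 axis, and ERB1, ARX1 and EBP2 lie along the Puf4 axis.

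Sro9, a La-motif protein, raised 28 of the 42 (41.0% of all genes), with summed shares of 2.00% and 2.71%. Its library 2 held 295 reads of the 42, and without library 1 only 6 were called. HAS1 had 3.49% and 12.5% (at least 36.2-fold above dPup2), NOP7 5.05% and 13% (ratio 166.3, interval 25.3 to 7029.9), and DBP2 6.07% and 0%, with 15 tagged reads in all (ratio 130.2, interval 30.3 to 1173.7). Rie1 raised 17 (22.0% of all genes), with sums of 0.233%, 1.36% and 1.21% in libraries 1, 3 and 4. DBP3 had 2.35%, 4.92% and 23.8% there (at least 39.1-fold), NOP12 2.33%, 5.52% and 1.64% (at least 16-fold) and NMD3 0%, 3.31% and 1.55% (at least 15.8-fold). Without library 3 of Rie1, 4 were called, and without library 4, 11. Nsr1, a nucleolar protein of rRNA processing, raised 16 (22.7% of all genes), with EBP2 at least 10-fold, RLP7 at least 8.59-fold and HAS1 at least 7.67-fold above dPup2. The fitted median log2 differences of the 42 were 4.46, 3.13 and 2.80 in Sro9, Rie1 and Nsr1, beside 3.63, 3.05 and 2.96 for all genes. Without library 2 of Nsr1, 10 were called. DESeq2 called 0 of the 42 in Sro9, 1 in Rie1 and 1 in Nsr1. By summed reads the share of the 42 was below that of the other genes in each library of Sro9 (2.00% and 2.71% beside 10.2% and 12.1%) and of Nsr1 (0.367% to 1.07% beside 1.03% to 2.37%). In Rie1 it was 0.233%, 1.36% and 1.21% beside 0.419%, 1.51% and 1.18%.

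Pbp1 raised 5 of the 42 (2.34% of all genes), namely DBP10, EBP2, RRP5, RRS1 and NOG1, whereas DESeq2 called 0. At an unadjusted p under 0.05, edgeR gave 13 of the 42 and 346 of all 4363 genes tested. The summed share was highest in library 3, at 2.15% beside 0.225% and 0.294% in libraries 1 and 2, and without library 3 the count was 2. Libraries 1, 2 and 3 held 25, 15 and 26 tagged reads of the 42. The other genes were highest in library 3 too, with 0.0389%, 0.0496% and 0.601% in libraries 1, 2 and 3. RRP5 had 1.98%, 0.752% and 10% (at least 13.1-fold), RRS1 0.766%, 0% and 13.8% (at least 8.12-fold) and EBP2 0.312%, 0% and 3.23% (at least 4.92-fold). For the 28 other intact RBPs there were 8 calls among 1176 tests of members (2.77% of all tests), in Mrn1, Nab6, Pbp2, Slf1 and Yhc1. MAK16 stood out in Mrn1, with 13.3%, 9.63% and 18.9% tagged reads in libraries 1, 2 and 3, 67 of 533 in all, at least 64.6-fold above dPup2 (adjusted p = 6.57e-26). The other members called in Mrn1, NOG1 and NSA2, had 8 of 444 and 6 of 380 reads tagged, and MAK16 was at 2.94% in Puf4.

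A modification level above 0.15 at 16 reads per 1000000 reads (RPM) or more, the criterion for a target, was reached by 27 members in Puf4, 25 in Pub1, 10 in Sro9, 8 in Pbp1, 3 in Rie1 and 1 in Nsr1. Of all expressed genes, 4.16%, 55.5%, 21.0%, 3.25%, 11.2% and 11.1% reached it in the same order. At least 1 member reached it in 25 of the 90 strains, in some of them on very few tagged reads. In Mrn1 ΔRBD, for instance, NSA1 had 1 tagged read of 112. MAK5, NOC3, DRS1, NSA1 and LOC1 reached it in none of the 34 intact RBPs.

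The Pub1 deletions other than ΔT1 lowered the summed tagging of the 42 to different degrees. The sums of ΔT1 overlapped those of Pub1 (8.87% to 10.7%). The summed share was 10.4% and 8.35% in ΔT1, 2.76% and 4.00% in ΔIDR_3, 2.33% and 2.97% in Δ4, 2.08% and 1.76% in Δ2, 1.15% and 0.865% in ΔIDR_1 and 0.419%, 0.354% and 0.147% in ΔIDR_2. The T2 libraries carry titles of either of 2 families, Trc6 and Trc9, and were kept apart, with 0.217% and 0.111% in Trc6 and 0.164% and 0.0307% in Trc9. Compared with Pub1, 1 of the 42 was lower in ΔT1 (7.12% of all genes), 13 in ΔIDR_3 (21.2%), 14 in Δ4 (26.4%), 15 in Δ2 (27.0%), 19 in ΔIDR_1 (32.9%), 21 in ΔIDR_2 (39.4%), 15 in T2 Trc6 (27.6%) and 18 in T2 Trc9 (37.4%), and 0 were higher in any of them by edgeR (1 at an unadjusted p under 0.05, in ΔT1). The fitted median log2 differences of the 42 were -0.46 in ΔT1, -0.96 in ΔIDR_3, -2.25 in Δ4, -0.78 in Δ2, -2.55 in ΔIDR_1, -3.73 in ΔIDR_2, -3.47 in T2 Trc6 and -3.73 in T2 Trc9. Those of all genes were -0.46, -1.18, -2.29, -1.04, -2.31, -3.17, -2.90 and -3.72 in the same order.

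In ΔIDR_2, which lacks a disordered region of Pub1, NOP7 had 0 of 624 reads tagged (at least 73.5-fold lower), RRS1 1 of 402 (ratio 0.00672, interval 1.70e-04 to 0.0376) and NUG1 1 of 461 (ratio 0.00779, interval 1.96e-04 to 0.0439). In T2 Trc6 RRS1 (0 of 88), NOG1 (0 of 86) and NUG1 (0 of 61) were at least 10.9-fold, 7.09-fold and 5.66-fold lower, and in T2 Trc9 NOP7 (0 of 216), DBP2 (0 of 213) and RRS1 (0 of 102) were at least 25.4-fold, 16.1-fold and 12.6-fold lower. In ΔIDR_1 the largest fitted differences were those of NOP16 (0 of 515, at least 9.51-fold lower), DBP9 (0 of 415, at least 8.48-fold) and NOP4 (0 of 441, at least 6.89-fold). By their reads NSA2 (ratio 0.0233, 4 of 713 reads), NUG1 (0.0399, 6 of 540) and RRS1 (0.0478, 8 of 452) were lowered further than these bounds. In ΔIDR_3 the largest fitted differences were those of NOP16 (ratio 0.0868), HAS1 (0.106) and NOP12 (0.121). In Δ2, NSA2 went from 22.9%, 26.7%, 17.6% and 25.6% in Pub1 to 1.38% and 0.488% (ratio 0.0371, interval 0.0173 to 0.0709), followed by DBP9 (ratio 0.0454) and TIF6 (0.0544). In Δ4, TIF6 had 1 tagged read of 203 (ratio 0.0239, interval 6.01e-04 to 0.135), NOP12 0 of 125 and RLP24 0 of 265. TIF6 was also the member lowered in ΔT1, at 7.79% and 5.45% against 17.4%, 27.0%, 19.6% and 15.1% in Pub1 (ratio 0.302, interval 0.195 to 0.453, adjusted p = 9.23e-06). Leaving out a library changed the count to 7 in T2 Trc6 (without library 1), 6 in Δ4 (without C1_1) and up to 4 in ΔT1.

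Over the 35 deletion strains of the other 6 RBPs, there were 3 calls of a higher share among the members (0.707% of all tests) and 3 of a lower one (0.542%). Those lower were MAK16 in both Mrn1 deletions and DBP3 in Rie1 ΔIDR_3. MAK16 went from 67 of 533 reads in Mrn1 to 0 of 214 in ΔIDR (at least 8.97-fold lower) and 1 of 197 in ΔRBD (ratio 0.0404, interval 0.00101 to 0.233). The higher ones were NOP7 and DBP6 in Puf3 T7 (title del513) and HAS1 in Puf5 T4.

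The mRNA level of 8 or more members was lower in 7 deletion strains of Pub1, Nab6 and Mrn1. The summed level was 6830 to 8036 RPM in Pub1 and 3389 and 3175 in Δ4, 2831 and 2083 in T2 Trc6, 2236 and 2601 in T2 Trc9 and 5389 and 5488 in ΔT1. Libraries of a single strain also differed widely in this sum. It was 6906, 3551 and 6727 RPM in Pub1 ΔIDR_2 and ranged from 2486 to 7504 RPM in Puf3-dPup2. By edgeR, 34 of the 42 were lower in Δ4 (9.42% of all genes), 35 in T2 Trc6 (12.6%), 41 in T2 Trc9 (15.5%) and 8 in ΔT1 (2.60%), and 0 were higher in any (0 at an unadjusted p under 0.05). DESeq2 called 31, 35, 41 and 3 lower. Without a library, the count was 18 (C1_1) or 15 (C2_1) in Δ4 and 0 in ΔT1 (without either of its libraries). The fitted median log2 difference of the 42 was -1.0, -1.37, -1.53 and -0.41, beside -0.03 to -0.01 for all genes.

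**Figure D5:**
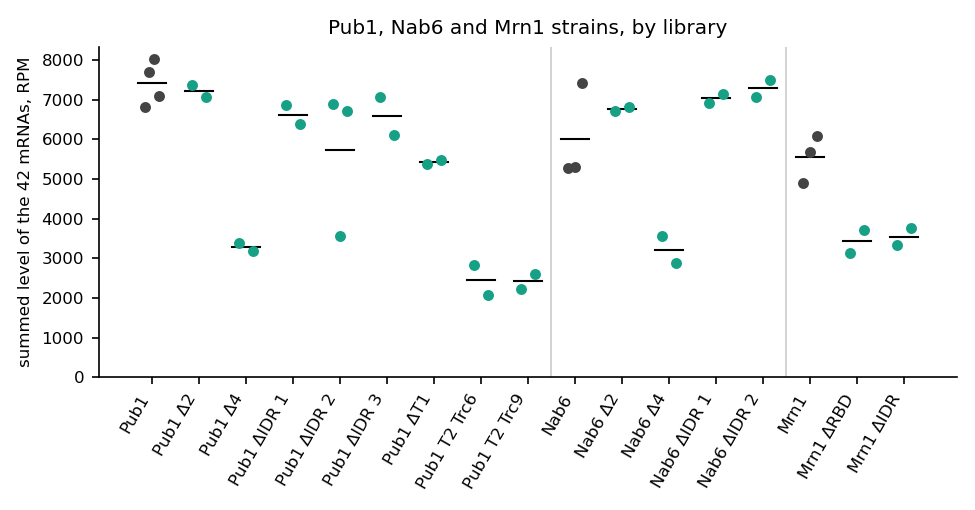
Summed mRNA level of the 42 genes (reads per 1000000 reads) in each library of Pub1, Nab6 and Mrn1 and of their deletion strains, 1 point per library with the mean as a line. The Pub1 libraries lie between 6830 and 8036, and those of Δ4 and T2 between 2083 and 3389.

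NOG1 fell most in T2 Trc9, from 332.2, 327.3, 258.5 and 273.0 RPM in Pub1 to 25.6 and 33.6 RPM (9.92-fold lower, adjusted p = 1.44e-06). RRS1 went from 312.3, 424.3, 386.6 and 314.4 RPM to 39.3 and 47.2 in T2 Trc9 (8.21-fold lower), 83.6 and 46.2 in T2 Trc6 (5.02-fold) and 103.1 and 92.9 in Δ4 (3.35-fold). NOP7, at 381.4 RPM ± 11.4 (SD, n = 4) in Pub1, was 5.26-fold lower in T2 Trc6 and 2.97-fold lower in Δ4. None of these libraries overlapped those of Pub1. DBP2 was 4.81-fold lower in T2 Trc6, DBP6 5.35-fold lower in T2 Trc9 and NOG1 3.4-fold lower in Δ4, while in ΔT1 the largest changes were those of SPB1 (1.84-fold), NOP2 (1.83-fold) and RRP5 (1.80-fold). The bounds on tagging in T2 above rest on these lower read numbers.

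In Nab6 Δ4, 26 of the 42 were lower than in Nab6 (7.91% of all genes), with sums of 3557 and 2877 RPM beside 5278, 5307 and 7414. RRP5 was 2.52-fold, MAK21 2.44-fold and SPB1 2.38-fold lower. Without library C2_1 of Nab6 Δ4, 3 were called, and without C1_1, 15. In Mrn1, 15 were lower in ΔRBD (2.93% of all genes) and 12 in ΔIDR (1.84%), with sums of 3144 and 3719 RPM and of 3337 and 3759 RPM beside 4897, 5682 and 6090. NMD3 fell from 224.9, 258.4 and 278.1 RPM to 87.2 and 112.2 in ΔRBD (2.51-fold) and to 100.6 and 104.2 in ΔIDR (2.36-fold). LOC1 (2.33-fold) and SPB1 (2.05-fold) followed in ΔRBD, and DBP10 (2.26-fold) and MAK5 (2.22-fold) in ΔIDR. Leaving out a library of a strain with 2, here and in the other comparisons, leaves 1 that is assumed to vary like the other group. Both Mrn1 counts were 0 without library C1_1 of the deletion strain, and without its library C2_1 they were 5 in ΔRBD and 4 in ΔIDR. The ΔIDR count was also 4 or 5 without library 1 or 2 of Mrn1.

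Other assembly genes were lower in the same strains. In T2 Trc9, 54 of 59 40S factors, 33 of 34 other 60S factors and 18 of 21 polymerase subunits were lower, with fitted median log2 differences of -1.48, -1.44 and -1.13, whereas 12 of 76 large-subunit ribosomal proteins were lower and 7 higher (median -0.15). In Δ4 the counts were 37, 27 and 10, and 14 ribosomal proteins were higher. In Nab6 Δ4, 41 of the 40S and 15 of the other 60S factors were lower.

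In Puf3 T5, a deletion strain of the Pumilio protein Puf3 with 3 libraries, 7 of the 42 were lower than in the 12 Puf3 libraries (3.01% of all genes). RRS1 had 77.7, 82.8 and 44.2 RPM in libraries 1, 2 and 4, and 59.3 to 312.7 RPM in Puf3, a range that overlaps (2.71-fold lower, adjusted p = 0.00854). TIF6 had 113.7, 95.9 and 76.5 RPM beside 113.1 to 302.0 (2.34-fold) and DBP3 102.1, 85.3 and 73.6 beside 80.4 to 277.4 (2.06-fold), and NSA2, DBP9, NOP2 and NOG1 were the other members lower. The summed level was 5796, 5779 and 3899 RPM beside 4254 to 9998 in Puf3. DESeq2 called 13. Without library 1 or library 2 of T5 the count was 0, without library 4 it was 6, and without a Puf3 library it was 6 to 10. The fitted median log2 difference was -0.42, beside 0.01 for all genes. In Puf3 T4 and T6 edgeR called 0, but 28 and 24 were lower at an unadjusted p under 0.05 (fitted medians -0.58 and -0.64, beside 0.01 and -0.02 for all genes). Of all genes tested, 402 of 5269 in T4 and 308 of 5299 in T6 were lower at that threshold.

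Over the other 35 deletion strains outside Puf4, 1 member was higher (MAK21 in Pub1 Δ2, 0.318% of all tests) and there were 11 calls of a lower level (0.423%), all in 4 Pub1 strains. RRS1 was among them in ΔIDR_1 (3.03-fold lower), ΔIDR_2 (3.25-fold), ΔIDR_3 (2.23-fold) and Δ2 (2.62-fold), NOP7 in the last 3 of these (1.55-fold to 2.31-fold), NOG1 in ΔIDR_2 and Δ2, and LOC1 in ΔIDR_2 and ΔIDR_3.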

How the data were processed

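RNA tagging was read out in 255 libraries of S. cerevisiae. Per the study's methods and the labels, the authors selected poly(A) RNA, ligated a 3′ adapter with a unique molecular identifier (UMI), prepared paired-end libraries with Tn5, demultiplexed with bcl2fastq, filtered adapter dimers with cutadapt and aligned read 1 to build R64 with Bowtie2. Us after the poly(A) tail were counted on read 2 and sense reads around the termination site with bedtools. The deposited values are raw counts of reads per gene for 0 to 16 Us, in 1 table per library. Tool versions and the role of UMIs in the counts are not given in the sources used here, so that intervals and bounds cover counting error only. No table held a column outside the sample map (0 columns).

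Groups came from the strain names in the labels. Titles split the T2 strain of Pub1 and the T7 strain of Puf3 in parts. All 255 libraries were used, 10 of them under 200000 reads. Over 316 pairs of libraries of a strain, 0 were identical and the lowest chi-square per degree of freedom was 1.83, so that none was counted as a repeat. The 42 members and the other gene lists were chosen with earlier results of these data known.

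Tagged reads (4–13 Us) of each gene were tested with edgeR 4.0.16 (quasi-likelihood, R 4.3.3, limma 3.58.1) with the log of all reads of the gene as offset (0.5 in place of 0 reads), over genes with a mean of 16 RPM or more. The mRNA level was tested on all reads with TMM and filterByExpr. P-values were adjusted over all genes tested (Benjamini-Hochberg, threshold 0.05). The modification level is the sum of Us on tagged reads over all reads of the gene. DESeq2 1.42.0, other filters, 5–13 Us, other controls, other size factors, other thresholds of the modification level, a replicate block and leaving out libraries were alternatives. Library numbers were not taken as pairs, since the deviations of same-numbered libraries from their group means correlated at -0.21 to 0.08 across genes. The tests were checked on simulated counts. Figures and counts used Python 3.11.15 (numpy 2.4.6, pandas 2.3.3, scipy 1.17.1, matplotlib 3.10.9).

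Values in every library are given for the 10 members with the highest modification level in Puf4 (at least 100 reads), values or counts for the 4 lowest, and the 3 largest called changes in every other comparison. Other genes were named after their values were seen. Of the 6629 genes, 5956 matched the RefSeq annotation, from which stop codons and sequences were read. In 3 members part of the counted region recurs elsewhere in the genome, with 15.2% of the 25-nt words of SSF1, 1.60% of those of NOP2 and 0.532% of those of MAK21, and these may share reads with other loci.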

Additional observations from a re-analysis of the deposited data

Results flagged for a closer look

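In 50 groups of 4 to 10 libraries, the highest or lowest value was compared with the spread of the others by Dixon's criterion, which chance meets in about 1 of 20 groups. It was met in 7. In Puf4 the summed tagged share of the 42 mRNAs was 7.59% in library C1_5 and 11.6% to 12.3% in the others. In the same library NOP2 had 18% tagged reads beside 27.6% to 29.4%, and NOG1 had 13.6% beside 22.0% to 23.0%. In Pub1 the summed share was 8.87% in library 3 and 10.5% to 10.7% in the others. In Puf3 T1 it was 0.0735% in 1 library beside 0% to 0.0123%, and in Puf5 it was 0.0881% in 1 of 6 libraries beside 0% to 0.0268%. In Puf3 T2 the summed mRNA level was 4466.9 RPM in 1 library beside 5269.2 to 5371.9.

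Reads with more Us than those counted as tagged were also more frequent on the 42 mRNAs in Puf4 than in dPup2. Stretches of 14 Us made up 0.560% of the reads (219 of 39136) in Puf4 and 0.00419% (3 of 71682) in dPup2. Stretches of 15 Us made up 0.733% (287 reads) in Puf4 and 0.0530% (38 reads) in dPup2.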

How the results depend on the processing

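The count of members higher in Puf4 than in dPup2 was 32 and lay between 22 and 33 under all alternatives (22 with the Puf4-dPup2 libraries alone as the control, 31 to 32 without a library). Of 840 values of single genes under alternatives, 782 kept their direction and call, 57 lost the call and 1 changed sign, namely DBP2 in Sro9, at -1.22 without library 1 and 6.29 without library 2 (log2). Causes of the changes below were not tested. All p-values compare libraries, and low tagged counts limit the members with few reads.

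With at least 10 tagged reads per gene as a further filter, 21 members were higher in Pub1, 5 in Sro9, 3 in Rie1, 2 in Nsr1, 0 in Pbp1, 1 in the other 28 RBPs, 2 in Puf4 T3, and 3 were lower in Pub1 ΔT1, while the other 35 deletions gave 0 higher and 6 lower. DESeq2 called 21, 0, 1, 1, 0, 1 and 2 in the same order, 7 lower in Pub1 Δ4 and 0 higher in the 35 deletions. With no filter beyond 1 tagged read, 8 were higher in Pbp1 and 21 in the other 28, and with 5–13 Us 5 were higher in the latter. With the library number as a replicate block, 15 members were lower in Puf4 ΔRBD, 0 in Puf4 T4 and 8 in Pub1 T2 Trc6, and for the mRNA level 2 were called in ΔRBD, 5 in T1 and 13 in T4. For the mRNA level DESeq2 called 3 in Puf4 ΔIDR, 4 in ΔRBD, 1 in T4&ΔIDR, 2 in T1, 6 in T2, 3 in T3, 7 lower in Mrn1 ΔRBD, 4 in Mrn1 ΔIDR, 3 in Pub1 ΔT1 and 13 in Puf3 T5. With no filter beyond 1 read, 1 was called in each of Puf4 ΔRBD, T1 and T2 and 5 in Pub1 ΔT1, as with DESeq2 size factors in edgeR. Without the libraries that stood apart, chosen after seeing the data, 1 was higher and 1 lower in the tagged share in ΔIDR, 1 was higher in T2 and 6 in T3, and the mRNA level gave 12 in ΔIDR, 3 in ΔRBD, 7 in T4&ΔIDR, 9 in T2, 3 in T3 and 2 in T4. At a modification level above 0.1, 11 members passed in Rie1 and 7 in Nsr1. Above 0.3, 15 passed in Pub1, 5 in Sro9, 1 in Rie1 and 0 in Nsr1, and 16 strains had a member that passed. The shares of all expressed genes above 0.1 and 0.3 are not given here, so these counts have no background to be read against.

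Leaving out 1 library at a time, the counts of tagged members in Puf4 deletions were 0 to 1 higher and 0 to 1 lower in ΔIDR, 0 to 1 higher in T2 and 0 to 3 higher in T3, those of other RBPs 6 to 29 (Sro9), 4 to 19 (Rie1), 10 to 19 (Nsr1) and 2 to 5 (Pbp1), and those of Pub1 deletions 6 to 14 (Δ4), 1 to 4 (ΔT1) and 7 to 16 (T2 Trc6). Counts of the mRNA level were 0 to 2 in Puf4 against Puf4-dPup2, 0 to 12 in ΔIDR, 0 to 11 in ΔRBD, 0 to 7 in T4&ΔIDR, 0 to 11 in T1, 0 to 18 in T2, 0 to 8 in T3, 0 to 2 in T4, 15 to 35 in Pub1 Δ4, 3 to 29 in Nab6 Δ4, 0 to 15 in Mrn1 ΔRBD, 0 to 15 in Mrn1 ΔIDR, 0 to 8 in Pub1 ΔT1 and 0 to 10 in Puf3 T5.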
